A study of Homo sapiens with 6 samples.

Results

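The genes described here build, transfer and trim the sugar chain that is attached to asparagine in secreted and membrane proteins. They were chosen by a fixed list of 40 gene symbols, drawn up with earlier results of these data known. Of these, 38 had a probe set assigned to that gene alone, out of 18132 genes measured in all. The other 2, ALG10 and ALG11, were read only by probe sets that the platform annotation assigns to several genes, and are not analysed here. The 38 genes fall into 4 roles: 11 in lipid-linked assembly, 11 in the oligosaccharyltransferase, 6 in trimming and folding checks in the endoplasmic reticulum (ER), and 10 in Golgi trimming and branching.

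Total RNA of HCT116 cells, which bear the name of an established line from a human colorectal carcinoma, was hybridised to Affymetrix arrays, with 3 arrays of cells labelled CSF3 and 3 of cells labelled Ctrl. CSF3 is the gene of granulocyte colony-stimulating factor, which drives the making of neutrophils. Both groups grew in the same RPMI medium with fetal bovine serum and antibiotics. The labels do not say how CSF3 was given or expressed, what the Ctrl cells received, or whether each array stands for its own culture. The p-values therefore rest on the spread between these 6 samples alone, and that spread may be technical.

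N-glycosylation starts on the cytosolic face of the ER, where enzymes add sugars one by one to the lipid dolichol phosphate. The chain is flipped into the lumen, extended with mannose and glucose, and moved as a whole onto nascent proteins by the oligosaccharyltransferase. Glucosidases and mannosidases then trim it while lectin chaperones hold the folding protein, and Golgi enzymes cut it further and add branches and fucose. Colon epithelial cells make membrane and secreted glycoproteins through this route.

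On the same arrays CSF3 itself rose, with a log2 signal of 5.96 ± 0.04 on CSF3 arrays and 4.83 ± 0.30 on Ctrl arrays (SD, n = 3 each; log2 change 1.12 ± 0.14 SE, limma adjusted p = 0.000371). This probe set is of a type that can hybridise with more than 1 transcript, and 45.4% of all genes rose. Several other measures moved with the groups. The gap between the 3' and 5' control probe sets of GAPDH, a sign of RNA integrity and labelling, was 0.682 ± 0.003 on CSF3 arrays and 0.306 ± 0.007 on Ctrl arrays (log2, SD, n = 3 each), and the lower quartile of all probe sets was 2.40 to 2.43 on CSF3 arrays and 2.18 to 2.19 on Ctrl arrays. The upper quartile moved the other way, at 5.37 to 5.40 on CSF3 arrays and 5.63 on Ctrl arrays. The part of these measures in the results below was not tested. Markers of the labelled cell type were uneven: the 2 probe sets of KRT18, a simple epithelial keratin, lay at percentile 92.7 of all probe sets, but the 3 probe sets of the epithelial adhesion gene EPCAM lay at percentiles 28.02 to 46.4, and those of the epithelial cadherin gene CDH1 and the brush border gene VIL1 lay at 9.89 to 23.1 and 3.15 to 6.84. The mean log2 signal of the 7 measured of 8 leukocyte and fibroblast markers was 2.92 to 3.05 on CSF3 arrays and 2.47 to 2.54 on Ctrl arrays, and 5 of them rose. All 7 were dimmer than the median gene, and of such dimmer genes 63.6% rose and 7.49% fell. Of the 10 epithelial and colon markers 5 rose and 2, KRT8 and EPCAM, fell, beside 45.4% of all genes rising and 27.1% falling. Probe sets of KRT8 lay at percentiles 18.3 to 77.9, CDX2 at 63.2, and GPA33 at 47.1 and 55.2. Those of CDX1 lay at 4.28 and 50.3, KRT19 at 35.8 and LGALS4 at 25.2. Detection calls were not used, so a low signal does not show whether a gene is silent, and in such bulk samples fewer cells of a type cannot be told apart from less RNA per cell.

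Most genes of the pathway were lower in CSF3 cells. Of the 38, 29 fell, 3 rose and 6 did not pass the test (limma, Benjamini-Hochberg adjusted p under 0.05 over all genes). Among all genes 27.1% fell and 45.4% rose, and among the brighter genes, those above the median level of all, which hold 31 of the 38, 46.8% fell and 27.1% rose. The median log2 change of the 38 genes was -0.41, against 0.16 over all genes and -0.13 over the brighter genes. After quantile normalization 22 of the 38 fell and 3 rose. With that scaling 20.1% of all genes fell and 39.2% rose, and of the brighter genes 30.4% fell and 42.7% rose. The median of the 38 was then -0.23, against 0.13 over all genes and 0.07 over the brighter genes. After cyclic loess 23 fell and 3 rose, beside 21.4% of all genes falling and 36.3% rising. Each of 17 genes fell under all 15 alternative settings, but how many of all genes did so was not counted. The arrays of the groups did not overlap for 34 of the 38 genes, 30 of them lower and 4 higher, while 76.2% of all genes had groups that did not overlap. A fall of at least 2-fold was reached by 5 genes, namely ALG8, STT3B, MAGT1, UGGT2 and FUT8, against 3.37% of all genes. After quantile normalization or cyclic loess 3 of these, ALG8, STT3B and MAGT1, still fell by at least 2-fold, and with all probe sets averaged 4 did, without MAGT1.

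**Figure D1:**
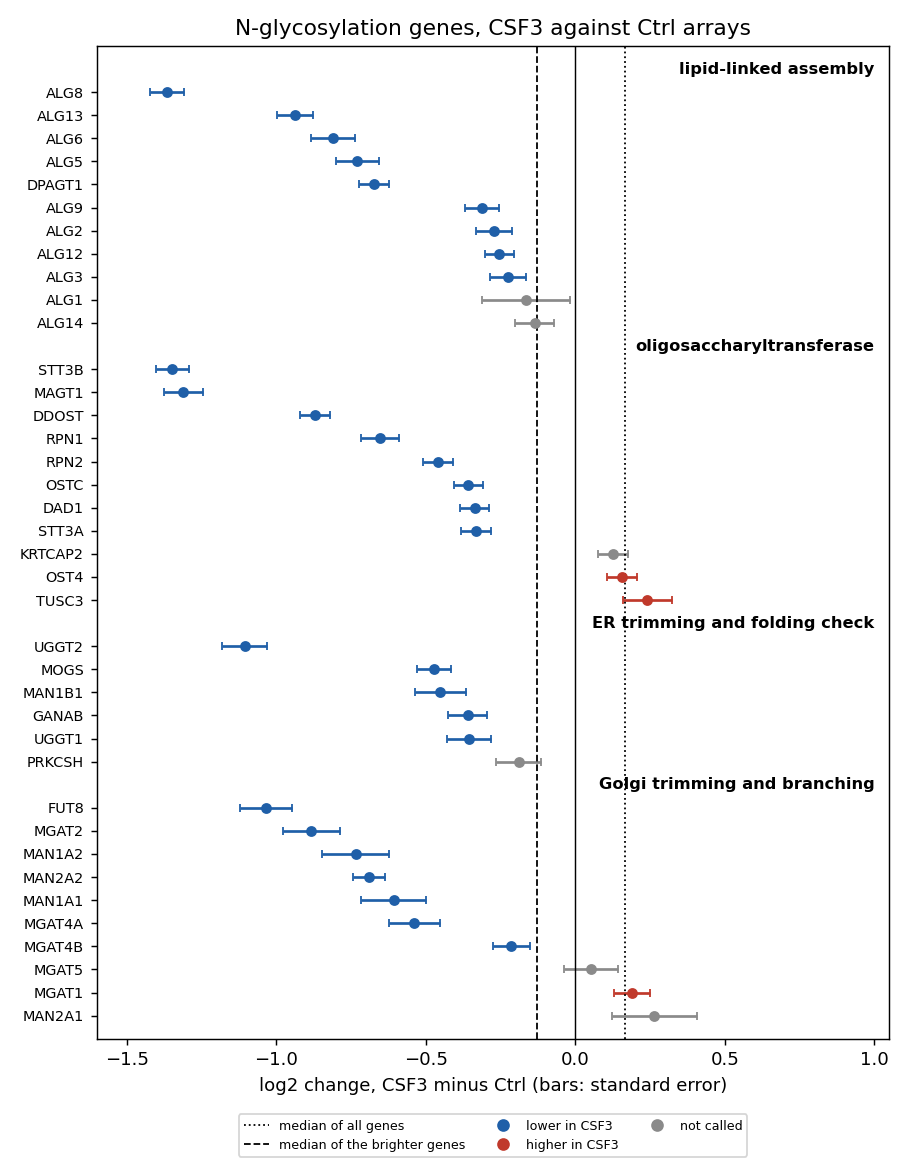
Log2 change of each of the 38 genes, CSF3 minus Ctrl, grouped by role, with the standard error as bars and colour for the test's call. 29 genes lie below 0 as called falls, and the dashed and dotted lines mark the median of the brighter genes (-0.13) and of all genes (0.16).

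**Figure D2:**
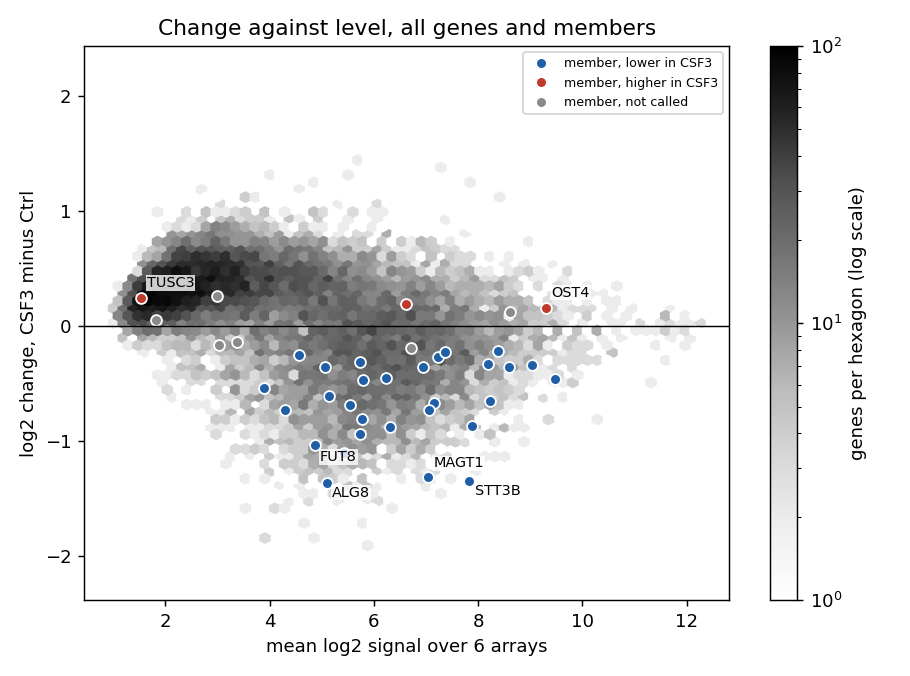
Log2 change (vertical axis, CSF3 minus Ctrl) against the mean log2 signal over 6 arrays (horizontal axis) for all 18132 genes as grey hexagons shaded by their number on a log scale, and for the 38 N-glycosylation genes as points coloured by the test's call. Dim genes lie mostly above 0 and brighter genes spread to both sides of it, and STT3B, MAGT1 and ALG8 lie near the lower edge at their levels.

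Promoters were searched for elements of the unfolded protein response, the programme by which cells raise ER genes under folding stress. The 250 bases before the start were available from RefSeq (GRCh38.p14) for 32 of the 38 genes. On either strand, the ER stress element, CCAAT and CCACG with 9 bases of any kind between them, was found in 1 of these 32, ALG12, and in 0.0806% of 27305 promoters. The core TGACGTG of another element was found in 1, MGAT1, and in 1.71% of all promoters, and the second form of the ER stress element, ATTGG and CCACG with 1 base between them, in 0 of 32 and 0.0513% of all. CCACG alone, which both forms contain, was found in 14 of 32 and in 33.3% of all promoters, and 13 of the 14 were among the 24 genes that fell and had a promoter. As 24 of the 32 fell with or without it, and the share falling among all genes with CCACG was not counted, no link is read from this. The 27305 promoters also include genes not measured here. A window of ALG12 and one of MGAT1 are shown because they hold the only whole matches among the 32, which stand in capitals (in MGAT1 the core is on the other strand), and each is given 5' to 3' on the strand of its gene. The ALG12 window is chr22:49918524-49918602 on the minus strand and the MGAT1 window is chr5:180815797-180815863 on the minus strand.
ALG12: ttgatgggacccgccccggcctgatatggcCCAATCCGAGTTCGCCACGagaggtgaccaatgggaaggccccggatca
MGAT1: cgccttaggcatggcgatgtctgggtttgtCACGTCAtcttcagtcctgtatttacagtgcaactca
The ALG12 match begins 134 bases before the start of the gene, and the next gene in the annotation is CRELD2, which encodes an ER stress-inducible protein. CRELD2, named after its values were seen, read 7.30 ± 0.11 on CSF3 arrays and 7.56 ± 0.04 on Ctrl arrays and fell by 0.26 ± 0.07 (limma adjusted p = 0.0111), beside the fall of 0.25 ± 0.05 in ALG12 (limma adjusted p = 0.00269). Both genes are among the brighter genes, of which 46.8% fell. After quantile normalization the change of ALG12 was -0.11 and not called, and after cyclic loess it was -0.18 and called. The matches are letters in these windows, and no binding was measured.

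Lipid-linked assembly fell in 9 of 11 genes, and none rose. Of the brighter genes, which hold 9 of the 11, 46.8% fell as deposited and 30.4% after quantile normalization. The median log2 change of the 11 genes was -0.31, and -0.32 after quantile normalization, where 6 fell, ALG14 now among them. These medians belong to different genes, ALG9 as deposited and ALG1, which was not called, after quantile normalization. ALG2, ALG3, ALG9 and ALG12 lost their call with that scaling. ALG8, which adds the second glucose of the chain, had log2 signals of 4.39, 4.48 and 4.38 on CSF3 arrays and 5.78, 5.72 and 5.83 on Ctrl arrays. All CSF3 arrays were low and the groups lay far apart, a 2.57-fold lower signal in CSF3 cells (log2 change -1.36 ± 0.06, limma adjusted p = 8.78e-06). This gene has a single probe set. ALG13, which joins the second N-acetylglucosamine, read 5.33, 5.22 and 5.24 on CSF3 arrays and 6.15, 6.28 and 6.16 on Ctrl arrays. It was lower on every CSF3 array (log2 change -0.94 ± 0.06, limma adjusted p = 2.81e-05), but of its 5 probe sets 2 fell, 1 rose and 2 were not called. ALG6, which adds the first glucose, read 5.41, 5.23 and 5.47 on CSF3 arrays and 6.16, 6.23 and 6.14 on Ctrl arrays. These groups did not overlap either (log2 change -0.81 ± 0.07, limma adjusted p = 9.18e-05), and its dimmer probe sets, at 0.26 and -0.17, were not called.

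ALG5, which makes the dolichol-bound glucose that ALG6 and ALG8 use, fell by 0.73 ± 0.07 (limma adjusted p = 0.000135) on its single probe set. Among the mannosyltransferase genes of the lumen, ALG9, ALG12 (its promoter window is printed above) and ALG3 had log2 changes of -0.31 ± 0.06, -0.25 ± 0.05 and -0.23 ± 0.06, with the highest limma adjusted p at 0.0110. After quantile normalization these 3 were no longer called, with changes of -0.04, -0.11 and -0.02, while ALG5, ALG6 and ALG8 still fell. The probe sets of 1 gene differ in their change, and 2 dimmer ones of ALG9 fell by 0.99 and 0.83. With all probe sets averaged the changes were -0.41 for ALG9, -0.26 for ALG3 and -0.25 for ALG12, beside -0.24 for ALG6, so no order of the steps can be read from these values. In the cytosolic mannose steps ALG2 fell by 0.27 ± 0.06 (limma adjusted p = 0.00510), which was -0.06 after quantile normalization and no longer called. Its dimmest probe set fell by 1.01, and the mean of its 3 probe sets by 0.48. The remaining probe set, at -0.16, was not called. The brightest is of a type that can hybridise with more than 1 transcript. With such probe sets set aside ALG2 had a change of -0.16 and was not called (limma adjusted p = 0.171). ALG1, the first mannosyltransferase, did not pass, at 2.94 ± 0.19 on CSF3 arrays and 3.11 ± 0.27 on Ctrl arrays (SD, n = 3 each; limma adjusted p = 0.333). ALG14, the membrane anchor of ALG13, read 3.30 ± 0.09 on CSF3 arrays and 3.44 ± 0.05 on Ctrl arrays, and its change of -0.14 ± 0.06 did not pass either (limma adjusted p = 0.0907). After quantile normalization its change of -0.23 was called.

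DPAGT1, the enzyme that starts the chain and the target of tunicamycin, has no settled direction. Its brightest probe set read 6.82 ± 0.01 on CSF3 arrays and 7.49 ± 0.04 on Ctrl arrays and fell by 0.67 ± 0.05 (limma adjusted p = 4.25e-05). A probe set of similar brightness had a change of -0.32, but the dimmer pair rose by 0.95 and 0.73. The brightest probe set is of a type that can hybridise with more than 1 transcript, and with such probe sets set aside the gene rose by 0.95 (limma adjusted p = 5.78e-05).

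The oligosaccharyltransferase comes in a form with STT3A as catalytic subunit, which works while the protein enters the ER, and a form with STT3B, which acts on sites that were skipped. Of its 11 genes 8 fell and 2 rose, while of the brighter genes, which hold 10 of the 11, 46.8% fell and 27.1% rose. After quantile normalization or cyclic loess 8 of the 11 fell and 2 rose as well, with KRTCAP2 in place of TUSC3 among the rises. Of the brighter genes 30.4% fell and 42.7% rose after quantile normalization. The median log2 change of the 11 genes was -0.36 as deposited and -0.23 after quantile normalization. STT3B read 7.20, 7.10 and 7.18 on CSF3 arrays and 8.49, 8.48 and 8.56 on Ctrl arrays. The groups lay more than a full log2 unit apart, a 2.54-fold lower signal in CSF3 cells (log2 change -1.35 ± 0.06, limma adjusted p = 8.45e-06), and all 7 of its probe sets fell, with changes from -1.56 to -0.92. STT3A fell to 8.03 ± 0.04 on CSF3 arrays, against 8.356 ± 0.005 on Ctrl arrays (SD, n = 3 each; log2 change -0.33 ± 0.05, limma adjusted p = 0.000963). The change of STT3B minus that of STT3A was -1.02 on the log2 scale (exact two-sided permutation p = 0.1, the lowest possible with 3 arrays a group, and 0.12 adjusted over the 6 pairs of related genes compared). Pairs were picked after the values were seen.

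Of the subunits of the STT3B form, MAGT1, an oxidoreductase-like subunit also linked to magnesium transport, read 6.46, 6.43 and 6.27 on CSF3 arrays and 7.71, 7.70 and 7.68 on Ctrl arrays. It was lower on every CSF3 array, by 2.48-fold (log2 change -1.31 ± 0.07, limma adjusted p = 1.21e-05). Of its 4 probe sets 3 fell, and the dimmest, the only one not of the type shared between transcripts, rose by 0.39. TUSC3, the alternative to MAGT1 in the same position, read 1.83, 1.62 and 1.54 on CSF3 arrays and 1.39, 1.48 and 1.39 on Ctrl arrays. All 6 values are dim, at percentile 2.93 of all genes, and the rise of 0.24 ± 0.08 (limma adjusted p = 0.0313) was not called after quantile normalization, where it was 0.06, nor without any one of the Ctrl arrays or CSF3 replicate 1 (limma adjusted p of 0.0501 to 0.0903). The change of MAGT1 minus that of TUSC3 was -1.55 (exact two-sided permutation p = 0.1, and 0.12 adjusted), but it was 0.15 with probe sets shared between transcripts set aside, and TUSC3 was not shown to be above background.

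Of the 5 subunits common to both forms 4 fell. DDOST read 7.50, 7.42 and 7.42 on CSF3 arrays and 8.30, 8.32 and 8.32 on Ctrl arrays. The groups were clearly apart (log2 change -0.87 ± 0.05, limma adjusted p = 1.95e-05), and all 3 probe sets fell. The ribophorin genes RPN1 and RPN2 had log2 changes of -0.65 ± 0.06 and -0.46 ± 0.05 (highest limma adjusted p = 0.000212). All 4 probe sets of RPN1 fell, with changes from -1.13 to -0.65, while the dimmer of the RPN2 pair rose by 0.25. DAD1, named as a defender against cell death, fell by 0.34 ± 0.05 (limma adjusted p = 0.000755), though the other 3 of its 4 probe sets lay between -0.18 and -0.04.

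OST4, the remaining common subunit, which stabilises the catalytic core, read 9.39, 9.38 and 9.37 on CSF3 arrays and 9.22, 9.26 and 9.19 on Ctrl arrays. The groups did not overlap, but the rise was small (log2 change 0.16 ± 0.05, limma adjusted p = 0.0229), and both probe sets rose. The call was lost without Ctrl replicate 1 or 3 (limma adjusted p = 0.0683 and 0.0891). KRTCAP2, which ties the STT3A form to the translocon, read 8.68 ± 0.04 on CSF3 arrays and 8.55 ± 0.03 on Ctrl arrays and missed the threshold (log2 change 0.13 ± 0.05, limma adjusted p = 0.0573). Its dimmer probe set had a change of -0.20, and after quantile normalization the gene rose by 0.26 (limma adjusted p = 0.00269). OSTC, the other subunit of the STT3A form, fell by 0.36 ± 0.05 on its brighter probe set (limma adjusted p = 0.000592) and by 0.32 on the other.

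**Figure D3:**
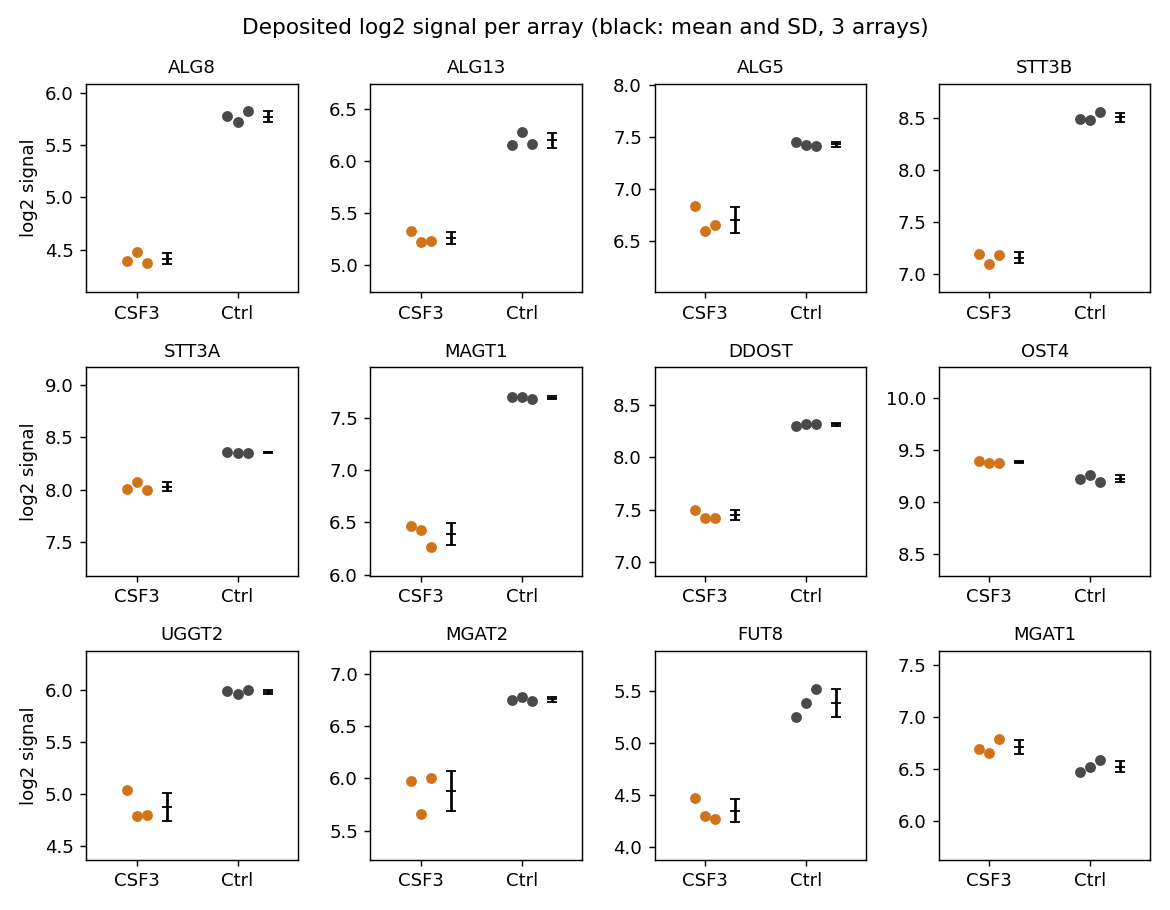
Deposited log2 signal of 12 genes on each of the 3 CSF3 arrays (left in each panel) and 3 Ctrl arrays (right), with the mean and SD in black and every panel spanning the same 2 log2 units. In STT3B, MAGT1 and ALG8 the groups are over 1 unit apart, while STT3A, OST4 and MGAT1 differ by less than 0.4.

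Trimming and folding checks in the ER fell in 5 of 6 genes, with a median log2 change of -0.41, but only 2 stayed called after quantile normalization or cyclic loess. These were UGGT2 and MOGS. All 6 genes are among the brighter genes, of which 46.8% fell as deposited and 30.4% after quantile normalization, so 2 of 6 is close to the latter share. UGGT2, a relative of the folding sensor that puts a glucose back on misfolded glycoproteins, read 5.04, 4.80 and 4.80 on CSF3 arrays and 5.99, 5.96 and 6.003 on Ctrl arrays. The Ctrl arrays were nearly equal and every CSF3 array was lower, by 2.15-fold in the mean (log2 change -1.11 ± 0.08, limma adjusted p = 3.30e-05). Of its 5 probe sets 4 fell, and the other was not called. UGGT1, the main sensor, fell by 0.36 ± 0.07 (limma adjusted p = 0.00408), a change of -0.15 and no call after quantile normalization. The change of UGGT2 minus that of UGGT1 was -0.75 (exact two-sided permutation p = 0.1, and 0.12 adjusted over 6 pairs).

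MOGS, the glucosidase that removes the outermost glucose, read 5.48, 5.61 and 5.58 on CSF3 arrays and 6.04, 6.01 and 6.03 on Ctrl arrays. Both groups were tight and apart (log2 change -0.47 ± 0.06, limma adjusted p = 0.000310), and both probe sets fell. For the glucosidase that removes the inner glucoses, the catalytic subunit gene GANAB fell by 0.36 ± 0.06 (limma adjusted p = 0.00207) on its brightest probe set, and all 5 probe sets fell, down to -1.11. The partner subunit gene PRKCSH read 6.62 ± 0.06 on CSF3 arrays and 6.81 ± 0.12 on Ctrl arrays and did not pass (log2 change -0.19 ± 0.08, limma adjusted p = 0.0521), and its sign turned to 0.05 after quantile normalization. MAN1B1, a mannosidase that marks misfolded proteins for disposal, read 6.14, 6.01 and 5.88 on CSF3 arrays and 6.50, 6.35 and 6.55 on Ctrl arrays. The groups did not overlap (log2 change -0.45 ± 0.09, limma adjusted p = 0.00261), 3 of its 4 probe sets fell and the dimmest rose by 0.64. Quantile normalization gave -0.19 and no call.

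In Golgi trimming and branching 7 of 10 genes fell and 1 rose. Of the brighter genes, which hold 6 of the 10, 46.8% fell as deposited and 30.4% after quantile normalization. The median log2 change of the 10 genes was -0.57 as deposited, -0.42 after quantile normalization and -0.22 with all probe sets averaged, where 6 fell. FUT8, which adds fucose to the core of the chain, read 4.47, 4.31 and 4.27 on CSF3 arrays and 5.25, 5.38 and 5.52 on Ctrl arrays. All CSF3 arrays were lower, by 2.05-fold in the mean (log2 change -1.03 ± 0.09, limma adjusted p = 7.02e-05), and its other probe set fell by 1.37. MGAT2, which starts the second branch of complex chains, read 5.98, 5.65 and 6.0006 on CSF3 arrays and 6.76, 6.79 and 6.74 on Ctrl arrays. The groups did not overlap although the CSF3 arrays scattered more (log2 change -0.88 ± 0.10, limma adjusted p = 0.000206), and all 4 probe sets fell, with changes from -1.37 to -0.26. MAN1A2, a Golgi mannosidase of the first trimming round, read 4.02, 3.68 and 4.08 on CSF3 arrays and 4.75, 4.57 and 4.65 on Ctrl arrays. Its 3 probe sets all fell, and the brightest changed by -0.73 ± 0.11 (limma adjusted p = 0.000952).

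The related enzyme MAN1A1 fell by 0.61 ± 0.11 (limma adjusted p = 0.00207), and the ratio of MAN1A2 to MAN1A1 differed by -0.13 between the groups (exact two-sided permutation p = 0.7). MAN2A2, a mannosidase of the next round, fell by 0.69 ± 0.05 (limma adjusted p = 5.54e-05), with 2 of 4 probe sets falling and 1 rising by 0.35. Its relative MAN2A1 read 3.12 ± 0.29 on CSF3 arrays and 2.86 ± 0.13 on Ctrl arrays and missed the threshold (limma adjusted p = 0.130). The change of MAN2A2 minus that of MAN2A1 was -0.95 (exact two-sided permutation p = 0.1, and 0.12 adjusted), and -0.45 with probe sets averaged.

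MGAT1, which opens the route to complex chains and acts before MGAT2, was the only gene of the Golgi role that rose. It read 6.69, 6.65 and 6.79 on CSF3 arrays and 6.47, 6.51 and 6.58 on Ctrl arrays. The groups did not overlap, and the rise was 0.19 ± 0.06 (limma adjusted p = 0.0237) as deposited and 0.44 after quantile normalization, but it was 0.03 and not called with both probe sets averaged. The call was also lost without Ctrl replicate 1 or 2 or CSF3 replicate 3 (limma adjusted p = 0.0867, 0.0706 and 0.0618). Its promoter window is printed above. Of the enzymes of further branches, MGAT4A fell by 0.54 ± 0.09 (limma adjusted p = 0.00117) on the brightest of 6 probe sets, 4 of which were not called and 1 of which rose, and the mean of all 6 gave -0.04 and no call. MGAT4B fell by 0.21 ± 0.06 (limma adjusted p = 0.0169), with 4 of 5 probe sets falling and 1 rising by 0.64. Its change was -0.05 and not called after quantile normalization, and the call was lost without Ctrl replicate 2 or 3 (limma adjusted p = 0.0554 and 0.0543). The change of MGAT4A minus that of MGAT4B was -0.32 (exact two-sided permutation p = 0.1, and 0.12 adjusted), but the sign turned to 0.23 with probe sets averaged and to 0.20 with shared ones set aside. MGAT5 was dim, at percentile 7.38, and read 1.85 ± 0.18 on CSF3 arrays and 1.79 ± 0.03 on Ctrl arrays (limma adjusted p = 0.617).

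Probe sets of one gene did not always go the same way. The 38 genes have 112 probe sets, of which 75 fell and 13 rose, against 28.4% and 37.1% of all probe sets of the array. Of the 29 genes with more than 1 probe set, 10 had every probe set lower, namely ALG3, STT3B, RPN1, DDOST, OSTC, MOGS, GANAB, MAN1A2, MGAT2 and FUT8, and 1, OST4, had every probe set higher. The share of all genes with every probe set lower was not counted, so these 10 show agreement within each gene only. In 8 genes, DPAGT1, ALG13, RPN2, MAGT1, MAN1B1, MAN2A2, MGAT4A and MGAT4B, some probe sets fell and others rose. With all probe sets averaged, the fall was smaller for ALG13 (-0.27), MAGT1 (-0.78), DAD1 (-0.16) and MAN2A2 (-0.18), was larger for GANAB (-0.77), and was no longer called for RPN2 (-0.11).

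**Figure D4:**
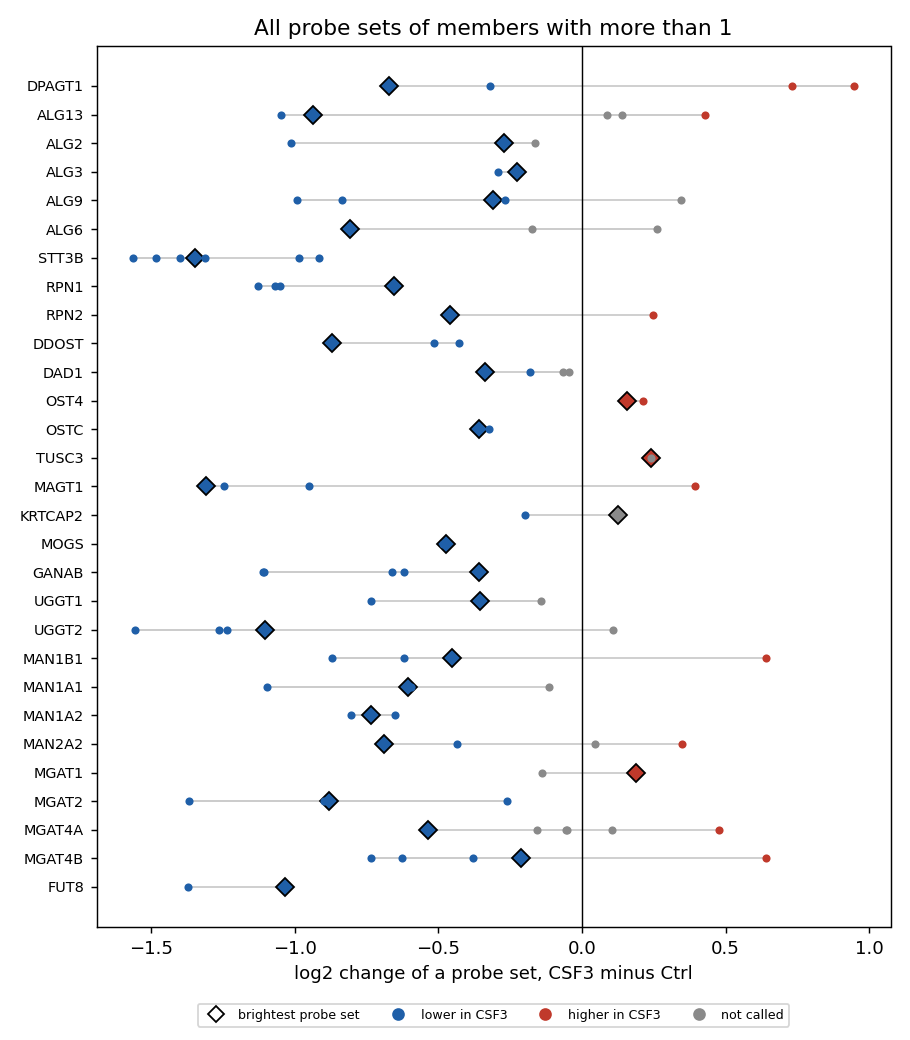
Log2 change, CSF3 minus Ctrl, of every probe set of the 29 genes with more than 1, with the brightest probe set as a diamond and colour for the test's call. The 7 probe sets of STT3B all lie below -0.9, while those of DPAGT1 range from -0.67 to 0.95.

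Neighbouring steps were read from lists of further genes, also drawn up with earlier results of these data known. Their counts stand beside 27.1% of all genes and 46.8% of the brighter genes falling. With quantile normalization 20.1% of all genes fell and 39.2% rose, and of the brighter genes 30.4% fell and 42.7% rose. Of 16 measured genes that supply dolichol and sugar donors, 11 fell and 3 rose, with a median of -0.31, or 6 and 5 with a median of -0.06 after quantile normalization. NUS1, a subunit of the enzyme that makes the dolichol chain, fell by 1.07 ± 0.08, and MPI and UGP2 of sugar phosphate metabolism had changes of -0.74 ± 0.09 and -0.51 ± 0.05. In the lectin folding cycle and glycan-dependent disposal 14 of 16 fell and 1, ENGASE of the cytosolic deglycosylating enzyme (named after its value was seen), rose, with a median of -0.76. These counts stayed 14 and 1 after quantile normalization, with a median of -0.57. SEL1L, a scaffold of the disposal ligase, fell by 1.82 ± 0.10, the cargo receptor gene MCFD2 fell by 1.01 ± 0.06, and EDEM1, which acts on mannose-trimmed chains, fell by 1.01 ± 0.05.

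Of 20 genes of later Golgi steps and sugar transport 10 fell, a share close to that of the brighter genes, and 3 rose, with a median of -0.22, or 8 and 5 with a median of -0.05 after quantile normalization. The nucleotide sugar transporter genes SLC35B4 and SLC35A1 had changes of -1.40 ± 0.10 and -0.97 ± 0.07, and TMEM165, which keeps Golgi ion balance, fell by 1.06 ± 0.08. The list of protein entry into the ER and a further transferase subunit had 3 of 10 lower, 2 higher and a median of 0.01 (-0.01 with array medians subtracted), or 3 lower and 5 higher after quantile normalization. All 10 are among the brighter genes, and 3 of 10 lower is below the 46.8% of those that fell as deposited. After quantile normalization the counts of 3 lower and 5 higher are close to the shares of the brighter genes, 30.4% and 42.7%. TRAM1 and SSR1 of the translocon fell by 0.86 ± 0.05 and 0.62 ± 0.05, while SEC62 rose by 0.34 ± 0.05. The highest limma adjusted p of the genes named from these lists was 0.00598.

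**Figure D5:**
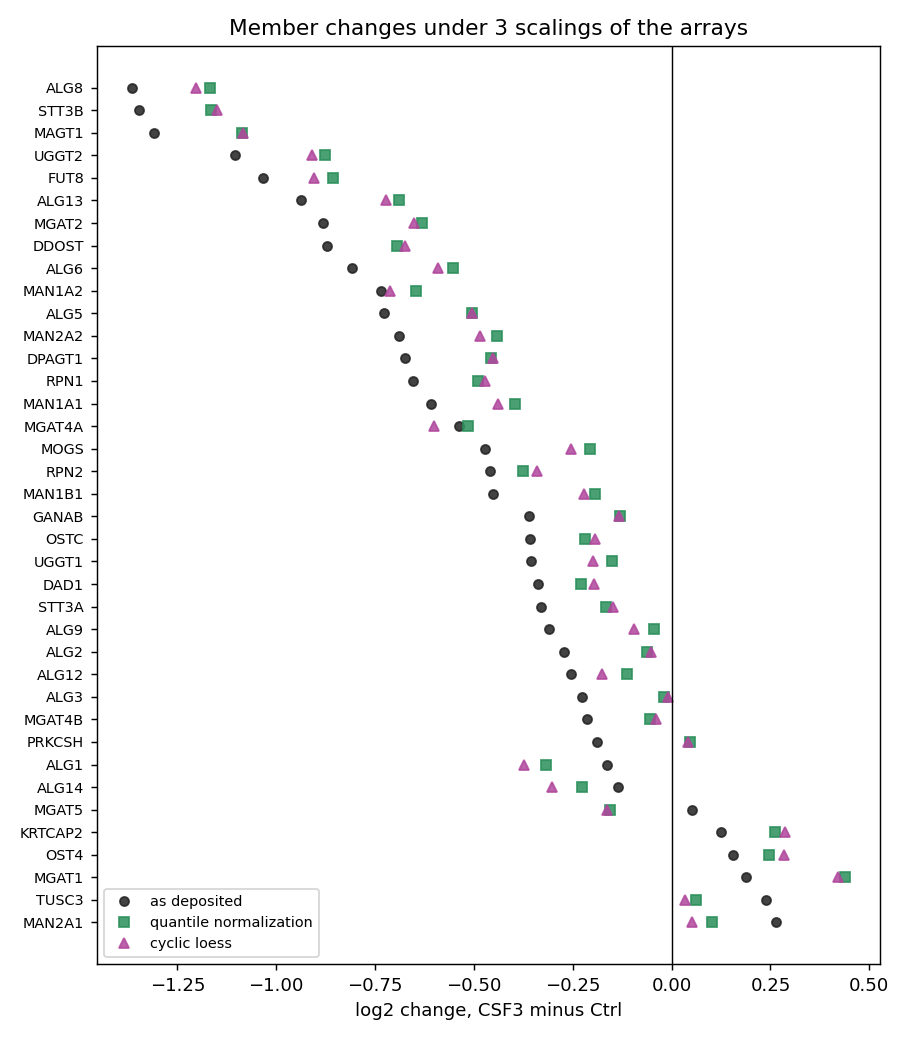
Log2 change, CSF3 minus Ctrl, of the 38 genes as deposited, after quantile normalization and after cyclic loess, ordered by the deposited change. The largest falls keep their side under all 3 scalings, and the genes between about -0.4 and -0.2 move toward 0.

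Several genes kept their call at a smaller size after quantile normalization, among them MOGS (-0.21), STT3A (-0.17), OSTC (-0.22), MAN1A1 (-0.40) and MAN2A2 (-0.44).

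Length of the gene was not used by the list. Across the 38 genes Spearman's rho between the genomic span in RefSeq and the log2 change was -0.16, too weak to read as a relation over so few genes. It was -0.20 across 18112 genes and -0.35 across the 9064 brighter ones, which share arrays and are not independent replicates. Among the 19 longer of the 38 genes 15 fell, with a median of -0.61, and among the 19 shorter ones 14 fell, with a median of -0.34.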

How the data were processed

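The authors deposited a table of 49395 probe sets by 6 arrays, read here as log2 values because they range from 0.809 to 12.7. Background correction, summarisation, normalization and log base were not given in the sources used here, and another base would change the folds but not the tests. Of the probe sets, 44988 have 1 gene in the platform annotation, and those with several genes, none or a control sequence were left out. The probe set with the highest mean stood for its gene. CSF3 minus Ctrl was tested with limma 3.58.1 (lmFit, then eBayes, under R 4.3.3) over 18132 genes, with Benjamini-Hochberg adjustment and a threshold of 0.05. Values are mean ± SD of 3 arrays and changes are ± SE. Control probe sets and ratios of related genes had exact permutation tests. The named genes are all 38 measured members, CSF3 and the 3 genes with the smallest p in each neighbouring list, with values per array for up to 3 lower and 3 higher genes of a role. The related pairs and the promoter search were chosen after seeing the data. The members and lists were chosen with earlier results of these data known.

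The alternatives were 2 other normalizations, median centring, leaving out the 30% dimmest genes, 2 other probe set rules, 2 variance settings, the replicate block and leaving out each array. The number of arrays limits the precision.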

Additional observations from a re-analysis of the deposited data

Results flagged for a closer look

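Control probe sets, which are outside the comparison of genes, read higher on CSF3 than on Ctrl arrays in 4 measures. The hybridisation controls had a median of 8.36 ± 0.05 on CSF3 arrays and 6.82 ± 0.07 on Ctrl arrays (log2, SD, n = 3 each), a difference of 1.53. The poly-A controls had 5.61 ± 0.03 on CSF3 arrays and 4.09 ± 0.25 on Ctrl arrays, a difference of 1.52. The gap between 3' and 5' probe sets was wider by 0.376 for GAPDH. For ACTB it was 1.94 ± 0.02 on CSF3 arrays and 1.34 ± 0.03 on Ctrl arrays, wider by 0.600. By the exact permutation test (two-sided) each gave p = 0.1, the lowest possible with 3 arrays a group. Their part in the falls of the N-glycosylation genes was not tested.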

How the results depend on the processing

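Of the 29 falls, 17 were called in the same direction under all 15 alternatives: ALG5, ALG6, ALG8, ALG13, STT3A, STT3B, RPN1, DDOST, DAD1, OSTC, MOGS, UGGT2, FUT8, MAN1A1, MAN1A2, MAN2A2 and MGAT2. None of the 3 rises was. How many of all genes kept their call under all 15 alternatives was not counted. The count of falls was 22 to 30 over the alternatives. Under quantile normalization and cyclic loess the median of the 38 genes was -0.23 and -0.28, and 2 of the ER trimming genes fell under either. The count of rises was 5 with own probe sets preferred over shared ones, and 0 to 4 with an array left out: it was 0, 1 and 1 without Ctrl replicates 1, 2 and 3. Signs turned for DPAGT1 (0.17 with probe sets averaged, 0.95 with own probe sets), MAGT1 (0.39 with own probe sets), KRTCAP2 (-0.037 averaged, -0.20 own), PRKCSH (0.047 under quantile normalization, 0.041 under cyclic loess) and MGAT5 (-0.16 under both, and -0.017 to 0.15 with an array left out, the lowest without CSF3 replicate 2). With own probe sets, other probe sets of these genes are read. The cause was not tested for the 2 normalizations. Arrays of the same replicate number correlated at 0.0266 to 0.0377 in their deviations over genes, so the numbers do not pair them. With the replicate block 29 genes fell and 2 rose, and the call of OST4 was lost (limma adjusted p = 0.0530). Over all genes, the share falling was 20.1% under quantile normalization and 38.5% without the dimmest genes. Without detection calls, signal over background could not be judged.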
